A study of Mus musculus with 6 samples.

Results

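The M1 and M2 states of RAW264.7 cells, a mouse macrophage line, were compared directly with each other without irradiation, 1 library against 1 library. M1 cells had received 100 ng/mL LPS, a bacterial cell wall component, together with 20 ng/mL IFN-γ for 24 h. M2 cells had received 20 ng/mL IL-4 for 24 h, and M0 cells were not polarized. The counterparts RM0, RM1 and RM2 had been given 10 Gy of gamma rays and a further 24 h in culture. Each of the 6 conditions has 1 library made from RNA pooled over wells, so no difference between M1 and M2 has a replicate check. A single library per state of 1 cell line also limits what the values say about macrophages in tissue, and of the labels the source field says bone marrow but the culture protocol names the cell line. Of 24062 genes counted, 11830 had at least 10 counts in M1 or M2 and are called measured here, 2802 had 1 to 9 counts as their highest, and 9430 had 0 in both.

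LPS signals through Toll-like receptor 4 to the transcription factor NF-kB, and IFN-γ induces a large set of interferon-stimulated genes. IL-4 signals through STAT6 and is known for inducing arginase, lectins and chemokines of the alternative program in mouse macrophages. In tissues the former state is linked to killing of microbes and antigen presentation and the latter to repair and allergic responses.

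Library totals were 18472101 counts in M1 and 17894937 in M2, within a range of 17894937 to 18870516 over the 6 libraries. The 10 most abundant genes took 15.5% of the counts in M1 and 12.1% in M2, with the ferritin heavy chain gene Fth1 first in M1 and the osteopontin gene Spp1 first in M2. Libraries were therefore scaled by the TMM method, and a log2 ratio is the log2 of scaled counts in M1 over those in M2 with a prior count of 2. A positive value means higher in M1. Where 3 counts of a gene follow each other, they are those of M0, M1 and M2, or after irradiation those of RM0, RM1 and RM2. Ranges in brackets are 95% Clopper-Pearson intervals (exact). Like the floor of 3 counts used below, they cover counting error only. All 8 macrophage markers examined were measured, with summed levels of 21586 in M1 and 25823 in M2 as CPM, the counts scaled to an equal library size. Lyz2 made up most of the sum, with 13291 in M1 and 20006 in M2, and Csf1r had 324 and 550. The others, Adgre1, Cd68, Itgam, Fcgr1, Cd14 and Spi1, were higher in M1. The direction of Itgam, with 24525 counts in M1 and 25991 in M2, and of Spi1, with 5511 and 5479, rests on the scaling. Markers of T cells, B cells and epithelial cells were at or near 0 in both libraries, with no marker above 1 count. Rn45s, the ribosomal RNA precursor, took 0.0972% of the counts in M1 and 0.531% in M2, and its part in the differences below was not tested.

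Several markers did and 1 did not follow the names of the states. Nos2, which encodes inducible nitric oxide synthase, counted 14393 in M0, 169925 in M1 and 10749 in M2, a log2 ratio of 4.42 (4.39 to 4.45) between M1 and M2. Cd86, which encodes a costimulatory ligand, had 176, 493 and 162 counts in the same order, a log2 ratio of 2.03 (1.78 to 2.31). Arg1, which encodes arginase, had 0 counts in M0, against 5 in M1 and 31 in M2, a log2 ratio of -1.89 (-3.91 to -0.82). These 3 lay on the side that their state's name gives. Mrc1, which encodes the mannose receptor CD206 and is used as a marker of M2 cells, went the other way, with 10 counts in M0, against 50 in M1 and 6 in M2. Its log2 ratio was 3.09 (2.27 to 5.01). In the irradiated libraries it was again higher in RM1, with 26 counts, than in RM2, with 12, or RM0, with 5. Retnla, a further IL-4 marker, had 0 counts in all 6 libraries. In RNA, the library labelled M2 therefore carried Arg1 but not higher Mrc1, and Retnla could not tell the states apart. The paper reports that CD206 protein was raised in M2 over M0 cells by flow cytometry. It also reports higher M2 markers in M2 from RNA sequencing. Protein was not measured in these libraries.

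Between M1 and M2, 2911 genes (24.6% of those measured) differed at least 2-fold. Of these, 1133 (9.58%) were higher in M1 and 1778 (15%) were higher in M2. Between 2-fold and 4-fold lay 797 genes higher in M1 and 1396 higher in M2, and between 4-fold and 8-fold 205 and 303. At least 8-fold higher were 131 genes in M1 and 79 in M2. Just outside the limit, 373 genes lay between 1.9-fold and 2-fold, and just inside it 304 lay between 2-fold and 2.1-fold. The split between the states rested on the scaling. With scaling by library totals alone, the median log2 ratio of all measured genes moved from -0.06 to -0.53, and 588 genes were then higher in M1 and 3443 in M2. M1 thus held 38.9% of the calls with TMM and 14.6% with totals.

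The libraries of the irradiated states, which share no library with M1 and M2, gave a further view of the same difference. Between RM1 and RM2, 1841 of 11783 measured genes (15.6%) differed at least 2-fold, 780 (6.62%) higher in RM1 and 1061 (9%) higher in RM2. With totals these were 496 and 1937, so RM1 held 42.4% of the calls with TMM and 20.4% with totals. Of the 1133 genes higher in M1, 1071 were measured in RM1 or RM2, 1055 (98.5%) had the same direction there, as 86.3% of all genes measured in both pairs did, and 628 (58.6%) differed at least 2-fold again. Of the 1778 genes higher in M2, 1695 were measured, 1642 (96.9%) had the same direction and 835 (49.3%) differed at least 2-fold. In the opposite direction, 1 gene of the first group and 2 of the second passed 2-fold. The median log2 ratio of the first group was 1.5 without and 1.11 with irradiation, and that of the second was -1.45 and -0.99. Across 11610 genes measured in both pairs, Spearman's rho between the ratios was 0.876, a description across genes, which are not independent replicates.

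**Figure D1:**
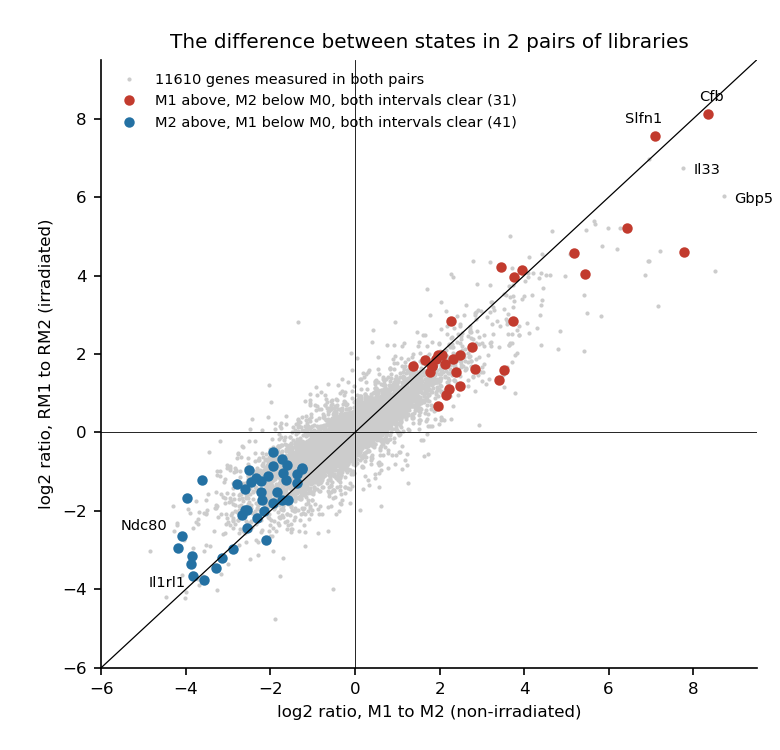
Log2 ratio of M1 to M2 on the x axis against that of RM1 to RM2 on the y axis, for 11610 genes measured in both pairs. Grey points are genes, filled points are the 31 genes (red) and 41 genes (blue) on opposite sides of M0 with both counting intervals clear of 0, and the diagonal marks equal ratios. All filled points lie on the same side of 0 in both pairs.

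A test of the state effect common to both pairs used all 6 libraries. Of 11804 genes tested with edgeR's quasi-likelihood test, 2995 (25.4%) were higher in the M1 state and 3204 (27.1%) in the M2 state at an adjusted p under 0.05. The irradiated libraries stood in for replicates in it, with 2 residual degrees of freedom, so it tests the effect shared by both pairs and assumes that it is the same in each. Without the M2 library the counts were 1383 and 1626, and without RM2 they were 1696 and 1901.

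Among genes with at least 100 counts in the higher library, the 10 highest ratios included Gbp5, Gbp2, Gbp4 and Gbp2b, which encode guanylate-binding proteins, and Slfn1 of the Schlafen family. Cfb and Il33, both described below, were also among them. Serpina3f, a serine protease inhibitor gene, had 4 counts in M0, against 594 in M1 and 0 in M2, at least 268-fold higher in M1 than the floor of 3 counts in M2. Car4, carbonic anhydrase 4, had 6, 904 and 6 counts and a log2 ratio of 7.23 (6.54 to 9.12). Gbp4 had 4, 444 and 2 counts and a ratio of 7.17 (6.37 to 11.28), and U90926 had 26, 2486 and 25 and a ratio of 6.95. All 10 were higher again in RM1 than in RM2, though Serpina3f with 29 counts in RM1 and Gbp4 with 38 were far lower than in M1. So were Gbp5, Gbp2 and Gbp2b, with 385, 726 and 608 counts in RM1 against 2872, 6032 and 4580 in M1. Cfb had 2138 and Car4 410 counts in RM1, against 4367 and 904 in M1. Counts of Il33, Slfn1 and U90926 were not lower in RM1. On the M2 side the 10 lowest ratios ran from -4.86 to -4.0 and came from low counts in M1, at most 13. AI506816 had 244, 9 and 317 counts, Pi16, a peptidase inhibitor gene, had 284, 13 and 330, and Ranbp3l had 167, 4 and 121. Slc17a6, a vesicular glutamate transporter gene, had 133, 7 and 211 counts, and Jrk had 163, 4 and 148. Gpr183 stood highest over M0 among these 10, with M2 at 2.16-fold of M0.

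Gene lists chosen by function placed the difference. Counts of members are to be read beside the 9.58% of all measured genes higher in M1 and the 15% higher in M2. The interferon-inducible GTPases, which attack the vacuoles of intracellular microbes, stood furthest toward M1. Of 18 measured members 17 were at least 2-fold higher in M1 and 0 in M2, and the median log2 ratio was 4.09, against -0.06 over all measured genes. Gbp5 had 14 counts in M0, against 2872 in M1 and 7 in M2, a log2 ratio of 8.73 (8.07 to 10.43) and the highest in the comparison among genes with at least 100 counts. Gbp2b, with 53, 4580 and 48 counts, had a log2 ratio of 6.95, and Gbp6, with 7, 553 and 4 counts, had 6.92. Members of this family are close in sequence and lie in clusters, so reads may be divided among them.

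The interferon-stimulated antiviral genes followed the same direction. Of 24 measured members 21 were higher in M1 and 0 in M2, with a median log2 ratio of 2.33. Oasl2, a 2'-5' oligoadenylate synthetase-like gene, had 96 counts in M0, against 2661 in M1 and 79 in M2, a log2 ratio of 5.47. Irf7, which encodes a master regulator of type I interferon, had 5965, 56496 and 4470 counts, a log2 ratio of 4.10. Ifit3, Ifit2 and Zbp1 had ratios of 4.43, 4.39 and 4.36. At the other end, Eif2ak2, the double-stranded RNA sensor PKR, had 1393, 1474 and 1552 counts and the smallest log2 ratio of the list, 0.36, whose sign rests on the scaling because the raw count was lower in M1 than in M2. All 24 members passed edgeR's quasi-likelihood test on the M1 side, where 25.4% of all genes tested did. That test includes the M1 and M2 libraries under the same scaling, so it is not a separate check.

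Class I antigen presentation was higher in M1 in 12 of 15 measured genes and in M2 in 0, with a median log2 ratio of 1.99. Among its members the inducible subunits of the immunoproteasome stood out. Psmb10 had 233 counts in M0, against 2245 in M1 and 211 in M2, Psmb9 had 249, 1378 and 200, and Psmb8 had 1578, 4132 and 1225. Tap1, a chain of the peptide transporter, had 1553, 10148 and 1427 counts and a log2 ratio of 3.27. Of the class II genes, 0 of 5 measured members were higher in M1 and 1 in M2, too few to set apart from the 9.58% and 15% of all measured genes. Cd74, the invariant chain, had 21607 counts in M0, against 15425 in M1 and 25262 in M2, a log2 ratio of -0.27, and H2-Oa had 31, 1 and 27. H2-Q7 and H2-Q9 had identical counts in all 6 libraries, so values of single class I genes of this cluster are uncertain.

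Costimulatory and checkpoint molecules were higher in M1 in 6 of 11 measured genes and in M2 in 0, with a median log2 ratio of 1.77. Cd274, which encodes the checkpoint ligand PD-L1, had 1349 counts in M0, against 8687 in M1 and 1528 in M2, a log2 ratio of 2.94. Cd40 had 582, 2550 and 568 counts and Cd80 had 1451, 4067 and 1608. Havcr2, the checkpoint receptor TIM-3, had 497, 402 and 553 counts and a log2 ratio of -0.02.

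Among inflammatory cytokines 11 of 17 measured genes were higher in M1 and 1 in M2, with a median log2 ratio of 1.71. Of all measured genes 9.58% and 15% were. Il27, a subunit of interleukin 27, had 84 counts in M0, against 1052 in M1 and 70 in M2, a log2 ratio of 4.30. Il1a had 57, 627 and 63 counts, and Il15ra, which presents interleukin 15, had 120, 696 and 102. Tnf, the best known product of this response, was under 2-fold higher in M1, with 9468, 8548 and 7292 counts and a log2 ratio of 0.67. The 1 cytokine higher in M2 was Il23a, at 39, 6 and 30 counts, and Il12b, with 2, 27 and 1 counts, was higher in M1. Il12b encodes the chain that interleukin 12 and interleukin 23 share, and both genes had low counts.

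Chemokines split further. Of 17 measured members 10 were higher in M1 and 2 in M2, with a median log2 ratio of 1.47. The number on the M2 side was too small to set apart from the 15% of all measured genes. Cxcl11, a ligand of CXCR3, had 6 counts in M0, against 161 in M1 and 3 in M2, a log2 ratio of 5.41 (4.61 to 8.48). Cxcl9, a further ligand of CXCR3, had 54 counts in M1 and 0 in M0 and M2, at least 24.4-fold higher in M1 than the floor of 3 counts in M2. Ccl5 had 718, 9987 and 773 counts, a log2 ratio of 4.13. Ccl22, a chemokine that attracts regulatory and type 2 T cells, was the one with the lowest ratio, with 767, 118 and 590 counts and a log2 ratio of -1.87. It was below M0 in both states, by -2.29 in M1 and -0.42 in M2 on the log2 scale, so its place on the M2 side came from the lower level in M1.

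**Figure D2:**
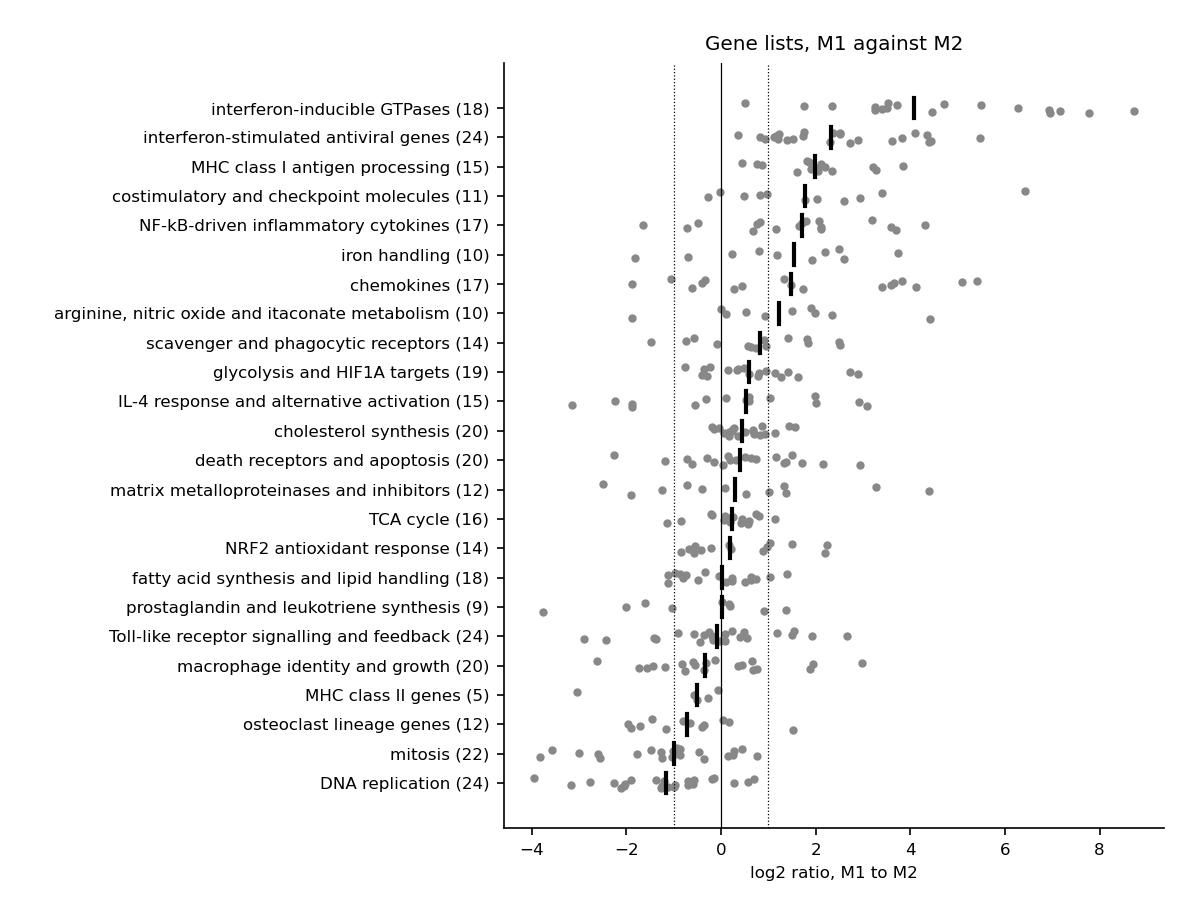
Log2 ratio of M1 to M2 for the measured members of 24 gene lists, with the number of members in parentheses. Each point is a gene, the thick bar is the list's median, and the dotted lines mark 2-fold. Medians run from 4.09 for the interferon-inducible GTPases to -1.17 for DNA replication, and with scaling by library totals each lies about 0.5 lower.

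The cell cycle lists lay at the M2 end. Of 24 measured DNA replication genes 0 were higher in M1 and 13 in M2, with a median log2 ratio of -1.17. Ccne2, cyclin E2, had 148 counts in M0, against 9 in M1 and 220 in M2, a log2 ratio of -3.95. Mcm3, a subunit of the replicative helicase, had 1441, 247 and 1461 counts, a ratio of -2.12. The list's median change from M0 was -1.05 in M1 and 0.01 in M2. In such bulk libraries fewer cycling cells and less RNA per cell cannot be told apart. Of 22 measured mitosis genes 0 were higher in M1 and 11 in M2, with a median of -0.98. Ccnb2, cyclin B2, had 68, 4 and 106 counts and a log2 ratio of -3.83, and Kif20a, a kinesin of cytokinesis, had 166, 19 and 221 counts and a ratio of -3.0. Aurkb, by contrast, had 105, 131 and 103 counts and a ratio of 0.77. The 10 lowest ratios among genes with at least 100 counts included Ndc80 at the kinetochore with 150, 3 and 179 counts and a log2 ratio of -4.86 (-7.75 to -3.89), Fbxo5, an inhibitor of the anaphase-promoting complex, with 84, 3 and 120, the mitotic kinesin gene Kif2c with 104, 3 and 113, and the recombination gene Rad54l with 149, 6 and 163.

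Osteoclast lineage genes leaned the same way, with 1 of 12 measured members higher in M1 and 5 in M2 and a median log2 ratio of -0.72. Of all measured genes 9.58% and 15% were higher. The lean was weaker in the irradiated pair, with 0 of 11 higher in RM1 and 3 in RM2. The median there was -0.26, against -0.98 for DNA replication. Mmp9, a gelatinase, had 2807 counts in M0, against 427 in M1 and 2166 in M2, Dcstamp, a gene of cell fusion, had 537, 129 and 574, and Ctsk, cathepsin K, had 2270, 819 and 2472. Acp5, the tartrate-resistant phosphatase by which osteoclasts are stained, was the exception with 595, 1210 and 573. Among macrophage identity genes 3 of 20 were higher in M1 and 5 in M2. These are too few to set apart from the 9.58% and 15% of all measured genes. Trem2, a lipid-sensing receptor, had 693, 82 and 698 counts and a log2 ratio of -2.63, and Cx3cr1, the fractalkine receptor, had 526, 72 and 327. Fcgr1, the high-affinity IgG receptor, had 978, 5200 and 891 counts and a ratio of 2.98.

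The Toll-like receptor list had members on both sides, with 5 of 24 higher in M1 and 4 in M2 and a median of -0.09. The number on the M2 side was near the 15% of all measured genes. All 4 on the M2 side were receptors. Tlr4, the LPS receptor, had 1199 counts in M0, against 219 in M1 and 1601 in M2, a log2 ratio of -2.42. Tlr8 had 19, 5 and 64, Tlr9 had 156, 47 and 173, and Tlr7 had 1046, 313 and 1105. All 5 on the M1 side were inhibitors, a signaling kinase gene or an NF-kB subunit. Tnfaip3, the ubiquitin-editing enzyme A20, had 452, 2352 and 501 counts and a ratio of 2.66, and Irak2, Socs3, Nfkbia and Nfkb2 had ratios of 1.91, 1.55, 1.51 and 1.18. In the prostaglandin and leukotriene list 1 of 9 members was higher in M1 and 4 in M2, beside 9.58% and 15% of all measured genes. This did not recur in the irradiated pair, where 2 were higher in RM1 and 1 in RM2, with a median log2 ratio of 0.10. Ptgs1, the constitutive cyclooxygenase, had 107, 3 and 83 counts and a log2 ratio of -3.77 (-6.66 to -2.76), whereas Ptges, prostaglandin E synthase, had 673, 1196 and 623 and a ratio of 1.38. Alox5, the first enzyme of leukotriene synthesis, had 1291, 167 and 911 counts and a ratio of -2.0.

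The IL-4 response list had members on both sides. Of 28 listed genes 13 had under 10 counts in both libraries, and of the 15 measured 5 were higher in M1 and 4 in M2, with a median log2 ratio of 0.52, or 0.04 with scaling by library totals. In the irradiated pair 3 were higher in RM1 and 5 in RM2, with a median of 0.01. The 4 on the M2 side were Clec10a, Egr2, Arg1 and Ccl22. The 5 on the M1 side were Mrc1, Socs1, Il4ra, Slc7a2 and Tgm2. Il4ra, the IL-4 receptor chain itself, had 672 counts in M0, against 1783 in M1 and 600 in M2. Slc7a2, an arginine transporter, had 11, 165 and 55 counts, above M0 in both states.

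Metabolic lists had medians nearer to 0 than the interferon lists. Iron handling genes were higher in M1 in 6 of 10 and in M2 in 1, with a median log2 ratio of 1.55. Ftl1, ferritin light chain, had 80184 counts in M0, against 361597 in M1 and 80227 in M2 (2.61), and Hmox1, heme oxygenase 1, had 3144, 11536 and 3409 (2.2). Arginine, nitric oxide and itaconate genes were higher in M1 in 5 of 10 and in M2 in 1, with Ass1, which regenerates arginine from citrulline, at 53, 160 and 41. Glycolysis genes were higher in M1 in 6 of 19 and in M2 in 0, with a median of 0.60, led by Pfkfb3 with 1773, 10289 and 1859 counts and a ratio of 2.90. Gapdh came next at 2.73, with 156, 829 and 167 counts, which are uncertain because the gene has many pseudogene copies. The medians of the TCA cycle (0.23), cholesterol synthesis (0.44), the NRF2 response (0.19), matrix metalloproteinases and inhibitors (0.31), death receptors and apoptosis (0.41), fatty acid synthesis and lipid handling (0.03) and prostaglandin synthesis (0.02) all turned negative with scaling by library totals, so no direction is given for them. Within the death receptor list, Fas had 132, 974 and 170 counts and a ratio of 2.94, and Nlrp3, the inflammasome sensor, had 1871, 280 and 1832 and a ratio of -2.27. Within the metalloproteinase list, Timp1, an inhibitor of these enzymes, had 11, 280 and 16 counts and a ratio of 4.39. Scavenger and phagocytic receptors were higher in M1 in 5 of 14 and in M2 in 1, with a median of 0.83 that stayed above 0 under either scaling.

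Setting both states against M0 showed which of them had moved. Of the 1133 genes higher in M1, 981 (86.6%) differed at least 1.5-fold from M0 in M1 alone, 20 in M2 alone, 54 in both in the same direction and 3 in neither. Of the 1778 genes higher in M2, 1583 (89.0%) differed from M0 in M1 alone, 51 in M2 alone, 27 in both in the same direction and 8 in neither. Against M0 at 2-fold, 1058 genes (8.98%) were higher and 1616 (13.7%) lower in M1, while 117 (0.995%) were higher and 52 (0.442%) lower in M2. These comparisons share the M0 library. The distance between M1 and M2 was thus for most genes the distance of M1 from unpolarized cells.

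The remaining genes lay on opposite sides of M0, at least 1.5-fold above it in one state and at least 1.5-fold below it in the other. There were 75 such genes (0.634% of those measured) above M0 in M1 and below it in M2, and 109 (0.921%) above M0 in M2 and below it in M1. Their counts were low, with a median of 32.7 counts averaged over M0, M1 and M2 in the former group and 19.7 in the latter. Both counting intervals were clear of 0 in 31 and 41 of them. At 2-fold on both sides 9 and 19 genes were left, 5 and 8 of them with clear intervals.

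**Figure D3:**
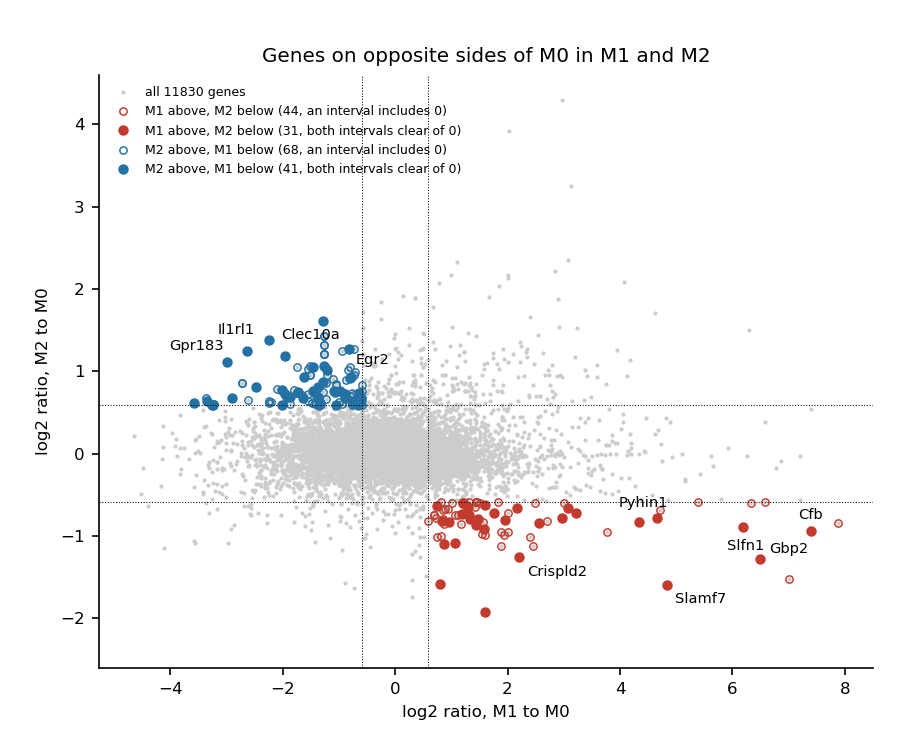
Log2 ratio of M1 to M0 (x axis) against log2 ratio of M2 to M0 (y axis) for 11830 genes, with dotted lines at 1.5-fold. Red marks genes above M0 in M1 and below it in M2, blue marks the reverse, and filled points have both counting intervals clear of 0. Most genes spread along the x axis, and 75 red and 109 blue genes lie in the opposite corners.

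Slamf7, which encodes a receptor of the SLAM family on immune cells (chr1:171632403-171653037 in GRCm38), stood first among genes above M0 in M1 and below it in M2 when these were ordered by the smaller of their 2 changes, given a mean of at least 50 counts and clear intervals. It had 66 counts in M0, against 1473 in M1 and 21 in M2, and 90, 862 and 26 in the irradiated counterparts. The log2 change of Slamf7 from M0 was 4.83 (4.52 to 5.26) in M1 and -1.59 (-2.47 to -0.96) in M2, and 3.47 and -1.74 from RM0 in RM1 and RM2. Cfb, complement factor B of the alternative pathway (chr17:34857668-34862514), had 32, 4367 and 16 counts, and 84, 2138 and 7 after irradiation. In both sets of libraries the M1 state was thus the highest and the M2 state the lowest. Gbp2 (chr3:142624575-142638008) had 86, 6032 and 35 counts, a log2 change of 6.50 in M1 and -1.28 in M2, and Slfn1, of the Schlafen family, had 58, 3333 and 31 counts, with changes of 6.19 and -0.90. Crispld2, which encodes a secreted LPS-binding protein, had 124, 439 and 52 counts, and 210, 1462 and 92 after irradiation. Pyhin1, an interferon-inducible gene of the DNA-binding PYHIN family, had 83, 1305 and 47 counts and changes of 4.34 and -0.83.

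Further genes named for this group differed less between M1 and M0 than Slamf7. Nt5e, the ectoenzyme CD73 that turns AMP into adenosine, had 96 counts in M0, against 200 in M1 and 53 in M2, and 96, 195 and 62 after irradiation, a repeat close in size. Entpd1, the ectoenzyme CD39 one step before it, named here after its values were seen, had 392, 684 and 242 counts, and 495, 875 and 285 after irradiation. Both genes thus had their highest counts in the M1 state and their lowest in the M2 state, and enzyme activity was not measured. Clec4n, the fungal receptor dectin-2, had 46, 107 and 24 counts, and the chemokine gene Ccl6 had 35, 165 and 19. H2-Bl, a class I gene, had 270, 376 and 128 counts, and it left the group with scaling by library totals, where its change in M1 was 0.46. The other 9 of the 10 genes named for this group kept their place under that scaling. S100a8, an alarmin subunit also named after its values were seen, had 4580 counts in M0, against 32464 in M1 and 2846 in M2. S100a9, the gene of the other subunit, had only 7, 3 and 1 counts. Elane and Mpo, further neutrophil genes, had at most 3 counts in any library.

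Il1rl1, which encodes ST2, the receptor of interleukin 33 (chr1:40439649-40465414), stood first in the same order, with the same limits, among genes above M0 in M2 and below it in M1. It had 290 counts in M0, against 34 in M1 and 711 in M2, and 324, 83 and 1038 in RM0, RM1 and RM2. Its log2 change from M0 was -2.64 (-3.25 to -2.18) in M1 and 1.25 (1.06 to 1.46) in M2, a log2 ratio of -3.89 (-4.49 to -3.45) between the states. The ligand lay on the other side. Il33 (chr19:29925114-29960715), a cytokine of the interleukin 1 family, had 235 counts in M0, against 26557 in M1 and 163 in M2, and 1093, 33813 and 373 after irradiation. Its log2 ratio of M1 to M2 was 7.77 (7.56 to 8.02), and in M2 its change from M0 of -0.56 stayed just inside the 1.5-fold limit. The M1 state thus held the most Il33 and the least Il1rl1, and the M2 state the reverse, in both sets of libraries. Il1rap, the shared accessory chain of the receptor, named after its values were seen, had 443, 369 and 716 counts and a log2 ratio of -0.52 (-0.70 to -0.34).

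Gpr183, the oxysterol receptor EBI2 that guides immune cells (chr14:121952331-121965193), had 109 counts in M0, against 9 in M1 and 244 in M2, and 117, 32 and 250 after irradiation. Clec10a, a galactose-binding lectin of alternatively activated macrophages (chr11:70166623-70170836), had 42, 7 and 101 counts, and 51, 10 and 128 after irradiation. The order M2, M0, M1 held in both sets for each. Egr2, an IL-4-induced transcription factor, had 101, 32 and 212 counts, with log2 changes of -1.22 in M1 and 1.02 in M2. Adhfe1, a mitochondrial transhydrogenase, had 154, 37 and 303 counts, and Cst7, the cysteine protease inhibitor cystatin F, had 39, 16 and 100. Abcd2, a peroxisomal fatty acid transporter, had 47, 20 and 94 counts, and Msh5, a meiotic mismatch repair homolog, had 80, 21 and 141. D630023F18Rik and Gm4944 completed the 10, which all kept their place under scaling by DESeq2 size factors and by library totals.

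**Figure D4:**
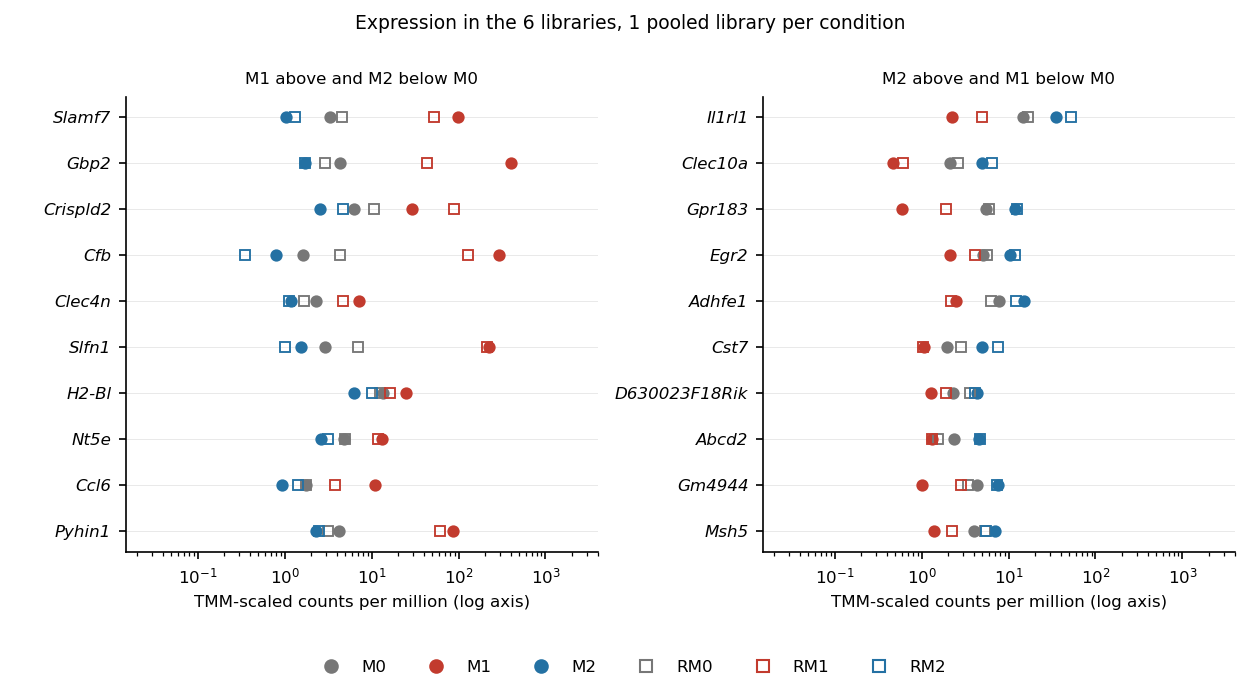
Scaled CPM, on a log axis, of the 10 named genes in each direction. Filled circles are M0 (grey), M1 (red) and M2 (blue), and open squares are the irradiated RM0, RM1 and RM2 in the same colors. In each row the filled grey circle lies between the red and the blue one.

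The opposite group held 0.634% of all measured genes on the M1 side and 0.921% on the M2 side. Of the function lists, mitosis held the most members in the opposite group on the M2 side, with 4 of 22. Ccna2, cyclin A2, had 151 counts in M0, against 30 in M1 and 250 in M2, Ccnb1, cyclin B1, had 249, 124 and 404, and Cenpf, a kinetochore gene, had 63, 5 and 105. Ccnb2 was the fourth. On the M1 side the interferon-inducible GTPases held 5 of 18, namely Gbp2, Gbp4, Gbp5, Gbp6 and Tgtp2, but the M2 counts of the last 4 were 2, 7, 4 and 0. Only Gbp2 among them had a clear interval below M0 in M2. The DNA replication list held 0 of 24 in either direction, which does not set it apart from the shares of all measured genes.

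In the irradiated libraries the positions around RM0 could be read independently. Of the 75 genes above M0 in M1 and below it in M2, 66 were measured, 53 (80.3%) lay on the same sides of RM0, where 22.2% of all 11783 measured genes did, and 23 passed 1.5-fold on both sides, where 1.01% of all did. Of the 109 genes in the reverse group, 89 were measured, 64 (71.9%) lay on the same sides, where 21.4% of all genes did, and 21 passed 1.5-fold, where 1.13% did. Among those with clear intervals, 29 of 31 and 38 of 41 lay on the same sides. Il1rl1, Clec10a, Gpr183, Adhfe1 and Cst7 were among the 21. Egr2, Abcd2 and Gm4944 were not, with changes from RM0 of -0.46, -0.19 and -0.26 in RM1. Nor were Msh5 and D630023F18Rik, with changes of 0.02 and 0.16 in RM2. Of the genes named for the M1 side, Slamf7, Gbp2, Crispld2, Cfb, Slfn1 and Nt5e were among the 23. Pyhin1, Clec4n, Ccl6 and H2-Bl were not, with changes of -0.33, -0.56, -0.29 and -0.28 in RM2.

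Promoter sequences were examined for the first genes of each direction that RefSeq lists, and for Il33 as the ligand of Il1rl1, which was added after its values were seen. The 250 bases before the RefSeq start of GRCm38.p6 are given 5′ to 3′ on the gene's strand, with motif matches in capitals. Motifs were searched on both strands. The interferon-stimulated response element, which factors of the IRF family bind, was taken as GAAA and GAAA with 2 bases between them. The spacing preferred by STAT6 was taken as TTC and GAA with 4 bases between them. One window can hold both. A match shares letters only and is not evidence of binding. The starts of Slamf7 (chr1:171649000-171649249) and Gbp2 (chr3:142620413-142620662) lie 4038 and 3912 bases from the deposited gene ends, those of Il1rl1 (chr1:40439379-40439628), Gpr183 (chr14:121965194-121965443) and Il33 (chr19:29924863-29925112) within 20 bases. Gbp2 held a response element from -59 to -50, Il33 held a match of STAT6 spacing from -36 to -27, and the other 3 windows held neither motif.
Slamf7: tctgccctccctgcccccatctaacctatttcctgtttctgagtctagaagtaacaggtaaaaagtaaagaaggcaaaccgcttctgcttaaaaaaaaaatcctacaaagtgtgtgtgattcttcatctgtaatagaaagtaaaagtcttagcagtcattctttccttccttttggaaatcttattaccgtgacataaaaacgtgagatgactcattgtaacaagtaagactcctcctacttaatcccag
Gbp2: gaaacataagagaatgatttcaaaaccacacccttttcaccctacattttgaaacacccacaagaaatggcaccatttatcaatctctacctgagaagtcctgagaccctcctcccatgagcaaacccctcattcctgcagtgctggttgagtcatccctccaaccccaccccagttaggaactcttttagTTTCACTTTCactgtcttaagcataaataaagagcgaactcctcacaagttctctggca
Il33: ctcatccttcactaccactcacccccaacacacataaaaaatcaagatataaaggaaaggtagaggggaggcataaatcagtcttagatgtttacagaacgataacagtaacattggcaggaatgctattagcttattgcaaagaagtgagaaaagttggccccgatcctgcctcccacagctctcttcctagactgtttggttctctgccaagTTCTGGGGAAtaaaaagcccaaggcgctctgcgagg
Il1rl1: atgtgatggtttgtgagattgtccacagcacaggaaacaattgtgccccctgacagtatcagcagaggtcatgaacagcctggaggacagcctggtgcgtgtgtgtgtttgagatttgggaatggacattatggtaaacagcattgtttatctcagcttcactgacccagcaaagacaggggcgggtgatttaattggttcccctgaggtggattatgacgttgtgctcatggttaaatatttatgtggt
Gpr183: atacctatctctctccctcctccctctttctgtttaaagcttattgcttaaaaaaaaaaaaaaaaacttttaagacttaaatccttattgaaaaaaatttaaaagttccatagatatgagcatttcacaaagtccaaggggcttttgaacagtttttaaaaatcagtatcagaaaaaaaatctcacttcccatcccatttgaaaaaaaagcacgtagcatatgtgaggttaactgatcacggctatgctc

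Over whole classes, counted from 250 bases before to 50 after the start, the response element was more frequent among genes higher in M1. It was in 3.25% of the 9300 promoters matched to measured genes and in 3.44% of all promoters of the table. Among genes above M0 in M1 and below it in M2 it was in 8 of 49 matched promoters (16.3%), and among the reverse group in 2 of 77 (2.6%). Genes at least 2-fold higher in M1 held it in 9.48% and those higher in M2 in 2.7%. Among genes at least 8-fold higher in M1, a class chosen after the data were seen, it was in 21 of 93 (22.6%). The STAT6 spacing was in 6.49% of the promoters of genes above M0 in M2 and below it in M1, near its 5.48% among measured genes. Of the NF-kB motifs, the loose form (GGG and CC with 5 bases between them) was in 67.8% of promoters of measured genes and in 52.7% of the 8-fold class, and the strict form (GGGA and TTTCC with 1 base between them) in 0.398% and 2.15%.

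**Figure D5:**
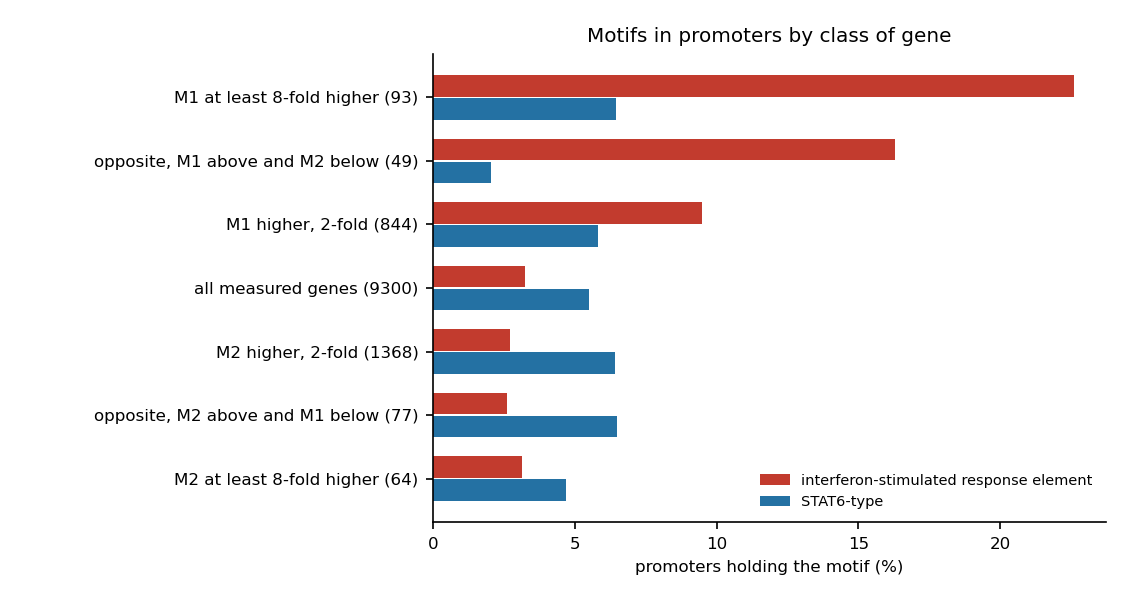
Share of promoters, in percent on the x axis, that hold the interferon-stimulated response element (red) or the STAT6-type motif (blue) in 7 classes of genes, with the number of promoters in parentheses. The response element runs from 22.6% among genes at least 8-fold higher in M1 to 2.6% among genes above M0 in M2 and below it in M1.

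The 8 response elements of the genes above M0 in M1 and below it in M2 are shown with 8 bases on each side, because they show how the match varies within this class. The core is in capitals on the gene's strand, and a core read from the other strand appears as TTTC and TTTC.
Gbp2: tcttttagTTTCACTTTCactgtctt
Itpka: ctttctcaGAAAGTGAAAggagtggg
Tgtp2: caggaatcGAAACCGAAAcctactct
Gbp5: ttgtgtagTTTCAATTTCagtttaga
Tgm1: caaacgccTTTCCTTTTCacttcagc
Phf11b: catttagaGAAAAAGAAActagaaac
Tmc7: gagggagaGAAAGAGAAAggggaggg
Fbxo36: gttaaaagGAAAAAGAAAaaaaaaaa
Their first bases lay between -242 and -50 from the start. Of these genes Gbp5, Gbp2, Phf11b and Tgm1, a transglutaminase gene, had 2872, 6032, 1425 and 820 counts in M1, whereas Itpka, Tmc7, Tgtp2 and Fbxo36 had at most 44.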

How the data were processed

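RNA was sequenced from 6 conditions of RAW264.7 cells, 1 pooled library each, and M1 was compared with M2. The authors deposited raw counts per gene for 24062 RefSeq genes with GRCm38 coordinates, made per the submitters' processing notes with Trimmomatic 0.36, HISAT2 2.2.1 and HTSeq 0.11.3. Whether counting used strand is not given in the sources used here, so overlapping and antisense genes cannot be told apart. There were 27 gene symbols that had turned into dates.

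From the deposited counts, libraries were scaled with TMM in edgeR 4.0.16 (R 4.3.3), with factors of 0.812 for M1 and 1.13 for M2, and log2 ratios used a prior count of 2 over genes with at least 10 counts in M1 or M2. A difference of 2-fold between 2 libraries carries no p. For the shared state effect, edgeR's quasi-likelihood test took state and irradiation as terms and all genes reaching 10 counts in 2 or more libraries. Its p-values were adjusted over all genes tested (Benjamini-Hochberg, 0.05). The test was checked on simulated data. There the state difference was made the same with and without irradiation, so that assumption was not checked. With between 17894937 and 18870516 counts a library, a count of 0 allows 3, and folds against 0 use that floor.

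The comparison, the 24 lists and the rules for named genes were chosen with earlier results of these data known. Genes named are the 10 highest and 10 lowest ratios with at least 100 counts, up to 10 in each direction on opposite sides of M0 with a mean of at least 50 counts and clear intervals, ordered by their smaller change, and up to 5 examples a list with at least 50 counts plus members named as exceptions, chosen after their values were seen. Of the list symbols, 433 of 434 were found. Promoters came from RefSeq (GRCm38.p6), where Clec10a and Cfb were not matched. One planned motif is not reported here. Alternatives were DESeq2 1.42.0 size factors and test, library totals, other prior counts, filters and thresholds, and each library left out. Other steps ran in Python 3.11.15 (pandas 2.3.3, numpy 2.4.6, matplotlib 3.10.9, scipy 1.17.1).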

Additional observations from a re-analysis of the deposited data

How the results depend on the processing

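Each condition has 1 library, so intervals cover counting error only and a difference between wells was not measured. No paired analysis by replicate number was possible because each condition has 1 library, and irradiation served as the block in the quasi-likelihood test. Whether the state difference itself changes with irradiation had no residual degrees of freedom and was not tested. The state with more genes changed with the setting between RM1 and RM2 at 4-fold and in the quasi-likelihood test, which gave 2995 genes higher in the M1 state and 3204 in the M2 state. The latter were 3162 and 3028 with DESeq2 size factors, 2886 and 2861 with at least 10 counts in all 6 libraries, 2852 and 2798 without M1, and 2635 and 2341 with DESeq2 in place of edgeR. The 7 list medians and the genes Eif2ak2, Itgam and Spi1, whose signs rest on the scaling, are given in the report. DESeq2 size factors, a prior count of 0.25 and no filter on low counts kept the counts of genes within 1.5 times, and so did TMM over M1 and M2 only.

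Scaling by library totals gave 588 genes higher in M1 and 3443 in M2, 496 in RM1 and 1937 in RM2, and 47 and 175 on opposite sides of M0. Under it, genes higher in M1 differed from M0 in M1 alone in 478 cases, on opposite sides in 47 and in neither in 0, and those higher in M2 in 3155, 175 and 20. At 4-fold, 336 were higher in M1 and 382 in M2, and 202 in RM1 and 171 in RM2. With at least 50 counts, 694 were higher in RM2, and 43 and 45 lay on opposite sides of M0. At 2-fold from M0, the latter were 9 and 19, while genes higher in M1 that differed from M0 in M2 alone were 13, in the same direction 20 and in neither 206. For genes higher in M2, the same direction held 7 and neither 293. The cause was not tested.

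In edgeR's quasi-likelihood test, leaving out each library gave 1383 to 3455 genes higher in the M1 state and 1626 to 3866 in the M2 state, lowest without M2 and highest without RM1. Where a state was left with 1 library, that library was assumed to vary like the others.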

Other observations

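Other genes moved at least 1.5-fold from M0 in the same direction in both states and still differed 2-fold between them. Of these 54 were above M0 in both and higher in M1, 6 were above M0 in both and higher in M2, 21 were below M0 in both and higher in M2, and 0 were below M0 in both and higher in M1. The genes named here were chosen after their values were seen. Il13ra2, the decoy receptor of interleukin 13, had 54 counts in M0, against 83 in M1 and 257 in M2, and 41, 71 and 505 in RM0, RM1 and RM2. Arl4c, a small GTPase gene, had 16, 28 and 91 counts. Both were highest in M2 and above M0 in M1. On the M1 side, Pgf, a growth factor of the VEGF family, had 171, 1167 and 275 counts, Socs1, an inhibitor of cytokine signaling, had 18, 205 and 35, and Upp1, uridine phosphorylase, had 2166, 10666 and 3531.

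Some features of the table limit single genes. Among measured genes, 70 shared identical counts in all 6 libraries with another gene of the same chromosome. Of these, 39 differed 2-fold between M1 and M2 and 4 lay on opposite sides of M0. Of all genes that differed 2-fold, 37 have the symbols of small nucleolar RNAs or microRNAs. Among markers of other cell types, Dcn, a fibroblast proteoglycan gene, had 113 counts in M0, against 627 in M1 and 114 in M2, while Col1a2 and Col3a1 had 0 in every library.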
